A study of Mus musculus with 6 samples.

Results

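Abundant secreted products of microglia were followed by their transcripts in Cd11b-enriched brain cells of mice. They are Cst3, Sparc and Olfml3, 3 genes of the 19361 across the count tables. They were chosen by name, and all 3 were found in each of the 6 libraries. In Drop-seq, a droplet method, transcripts are caught by their 3′ ends on barcoded beads and each molecule carries an identifier of its own (UMI), so a molecule is counted once and levels need no correction for gene length. Levels are given as a percentage of UMIs or as CPM, UMIs scaled to a total of 1000000.

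The metastasis group had 2 libraries, each from 1 brain of a female C57BL/6 mouse with brain metastases, taken 2 to 3 weeks after cells of the mammary carcinoma line E0771 were injected into the heart. The naive group had 2 libraries, each from 1 brain of a female C57BL/6 mouse with no metastases. A Cx3cr1-/- library (Cx3cr1-null) and a Cx3cr1+/- library (Cx3cr1-heterozygous) each came from 2 pooled brains of female C57BL/6 mice with E0771 metastases of the same 2 to 3 weeks. All mice were 2 to 3 months old, and all suspensions came from a Percoll gradient and magnetic Cd11b enrichment. Replicate 1 of metastasis and naive was sequenced on a HiSeq 2500, and replicate 2 and both Cx3cr1 genotypes on a NextSeq 500, so replicate number and sequencer cannot be told apart.

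Microglia, the resident macrophages of the brain parenchyma, release many proteins into the space around neurons and glia. Cst3 encodes cystatin C, a secreted inhibitor of cysteine cathepsins. Sparc encodes osteonectin, a secreted matricellular protein that binds collagen and is also made by endothelial cells and fibroblasts. Olfml3 encodes a secreted glycoprotein of the olfactomedin-like family, used as a marker of microglia among brain macrophages. In droplet data a transcript this abundant is also found in barcodes of other cell types, because RNA freed from broken cells can be captured in any droplet.

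In the GENCODE annotation of GRCm38 (mm10), all 3 are protein-coding genes of the minus strand: Cst3 (ENSMUSG00000027447.6) at chr2:148871722-148875692, Sparc (ENSMUSG00000018593.13) at chr11:55394500-55423183 and Olfml3 (ENSMUSG00000027848.12) at chr3:103722222-103738001. No other annotated gene overlaps any of them. Their promoters follow because the 3 transcripts moved to the same side in each pair of libraries compared across conditions. They are the RefSeq sequences of GRCm38.p6, 250 bases before to 50 after the start, 5′ to 3′ along the gene. Capitals mark matches, on either strand, to GAGGAA (the core bound by the myeloid factor PU.1) or GGGCGG (a GC box).
Cst3 promoter, chr2:148875463-148875762, minus strand: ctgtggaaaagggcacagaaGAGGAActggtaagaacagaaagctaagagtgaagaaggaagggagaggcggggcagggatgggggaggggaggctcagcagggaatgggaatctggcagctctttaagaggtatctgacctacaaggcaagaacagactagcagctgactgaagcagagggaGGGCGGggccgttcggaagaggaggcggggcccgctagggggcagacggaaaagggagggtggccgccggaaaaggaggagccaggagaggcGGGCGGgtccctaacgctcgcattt
Olfml3 promoter, chr3:103737952-103738251, minus strand: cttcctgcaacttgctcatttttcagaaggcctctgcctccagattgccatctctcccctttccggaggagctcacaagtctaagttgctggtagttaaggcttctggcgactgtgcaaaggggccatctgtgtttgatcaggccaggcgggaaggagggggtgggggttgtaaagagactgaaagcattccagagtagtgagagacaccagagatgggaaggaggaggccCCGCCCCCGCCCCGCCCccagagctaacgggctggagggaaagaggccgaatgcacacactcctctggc
Sparc promoter, chr11:55420031-55420330, minus strand: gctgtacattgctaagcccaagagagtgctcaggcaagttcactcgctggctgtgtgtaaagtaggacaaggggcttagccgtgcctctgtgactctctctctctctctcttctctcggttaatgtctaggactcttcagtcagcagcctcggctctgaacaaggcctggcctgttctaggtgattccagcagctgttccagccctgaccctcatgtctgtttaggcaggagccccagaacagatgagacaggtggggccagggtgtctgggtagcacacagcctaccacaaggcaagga
The Cst3 window held 1 PU.1 core at -230 and 2 GC boxes at -67 and 26, counted from the start site. The Olfml3 window held 3 GC boxes on the other strand at -19, -13 and -8, the last pair sharing a base, and no PU.1 core. The Sparc window held neither. The RefSeq starts of Cst3 and Sparc lie inside their GENCODE genes. The AP-1 motif, TGACTCA, was in no window. A TATA box, TATAAA, was in none either. Of the 32851 mouse promoters of this length, 28.3% held the PU.1 core, 35.7% the GC box, 5.20% AP-1 and 13.6% the TATA box. These matches are letters only and show no binding.

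Each library had 1000 barcodes and 491621 (metastasis 2) to 2667099 (metastasis 1) UMIs. Filtering kept 940 cells in metastasis 1, 399 in naive 1, 77 in metastasis 2, 172 in naive 2, 152 in Cx3cr1-null and 238 in Cx3cr1-heterozygous. Clusters were named from markers, with the ending "-like". Microglia-like cells numbered 151, 364, 72, 119, 115 and 179 in that order. The 12 microglia markers reached 19088 to 26342 CPM in the microglia-like cells of 5 libraries, against 7263 CPM in metastasis 1. There, 148 of the 151 cells came from a single cluster that could be named only against the rest of its own library, led by Ccl3, and the levels of that library stand apart below.

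For all 4 metastasis and naive libraries the table name and the sample label disagree on the group. The labels are followed here, and the libraries are called by them. Rhox5, a homeobox gene on the list of carcinoma markers, had 1340 UMIs (502 CPM) in metastasis 1 and 0 UMIs in naive 1, where a count of 0 allows up to 2.45 CPM. In replicate 2 it went against the labels, with 0 UMIs in metastasis 2, which allows up to 6.10 CPM, and 27 UMIs in naive 2 (16.6 CPM, 95% counting interval 10.97 to 24.2). Cx3cr1-null had 11 Rhox5 UMIs and Cx3cr1-heterozygous 33. If the labels of a pair were exchanged, each ratio of that pair would keep its size and turn its sign.

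Cst3 was among the 10 most abundant transcripts of every library. It took 0.456% of all UMIs in metastasis 1, 5.30% in naive 1, 4.74% in metastasis 2, 1.49% in naive 2, 2.04% in Cx3cr1-null and 1.97% in Cx3cr1-heterozygous. By share it ranked 8th in metastasis 1, 1st in metastasis 2 and 2nd in the other 4 libraries. At least 98.4% of the barcodes of any library held a Cst3 UMI.

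Sparc took 0.0723% of all UMIs in metastasis 1, 0.385% in naive 1, 0.352% in metastasis 2, 0.219% in naive 2, 0.235% in Cx3cr1-null and 0.210% in Cx3cr1-heterozygous. Outside metastasis 1 it ranked between 20th and 30th, and there 160th. Olfml3 took 0.00191% in metastasis 1, 0.0452% in naive 1, 0.0871% in metastasis 2, 0.0309% in naive 2, 0.0410% in Cx3cr1-null and 0.0229% in Cx3cr1-heterozygous. In metastasis 1 this was 51 UMIs, so Olfml3 was far rarer than both others, and its range over libraries, as a ratio of highest to lowest, was the widest of the 3. Together the 3 transcripts made up 0.530% of UMIs in metastasis 1, against 5.73% in naive 1, 5.18% in metastasis 2, 1.74% in naive 2, 2.32% in Cx3cr1-null and 2.20% in Cx3cr1-heterozygous.

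Between metastasis and naive these shares did not differ beyond the spread of the libraries. The Cst3 share averaged 2.60 ± 3.03% in metastasis and 3.39 ± 2.70% in naive libraries (SD, n = 2 each; exact two-sided permutation test, p = 0.667). Sparc averaged 0.212 ± 0.198% in metastasis and 0.302 ± 0.117% in naive libraries (exact permutation p = 0.667), and Olfml3 0.0445 ± 0.0602% in metastasis and 0.0381 ± 0.0101% in naive libraries (exact permutation p = 1). With 2 libraries against 2 the smallest p this test can give is 0.333. A share of all UMIs cannot tell fewer microglia from less RNA per cell, and microglia-like cells were 16.1% of kept cells in metastasis 1 against 69.2% to 93.5% elsewhere.

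**Figure D1:**
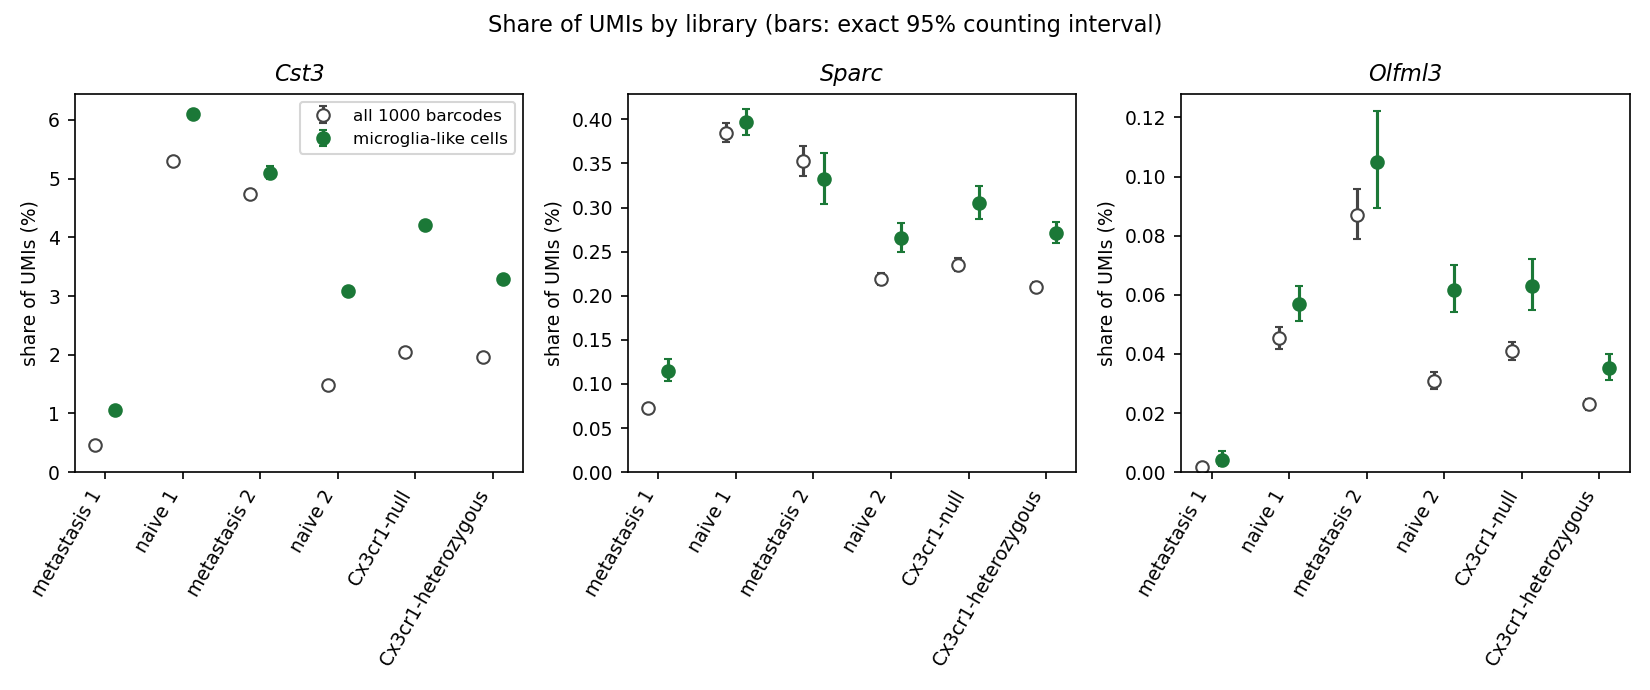
Share of UMIs (%, linear axis) taken by each of the 3 transcripts in the 6 libraries, over all 1000 barcodes (open circles) and over microglia-like cells (filled circles), with exact 95% counting intervals. Metastasis 1 is lowest in all 3 panels, and Olfml3 is highest in metastasis 2, at 0.105% of the UMIs of microglia-like cells.

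Within microglia-like cells Cst3 was the first or second most abundant transcript in 5 libraries and the third in metastasis 1. Its level was 10610 CPM in metastasis 1, 61077 in naive 1, 51033 in metastasis 2, 30864 in naive 2, 42043 in Cx3cr1-null and 32974 in Cx3cr1-heterozygous. From high to low the order was naive 1, metastasis 2, Cx3cr1-null, Cx3cr1-heterozygous, naive 2 and metastasis 1, and the counting intervals of neighbours did not meet. The 2 naive libraries lay at the top and next to the bottom of this order, so they lay on both sides of the 3 libraries between them.

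Sparc stood at 1148 CPM in the microglia-like cells of metastasis 1, 3968 in naive 1, 3322 in metastasis 2, 2656 in naive 2, 3054 in Cx3cr1-null and 2716 in Cx3cr1-heterozygous. The counting intervals of metastasis 2 and Cx3cr1-null overlapped, as did those of Cx3cr1-heterozygous and naive 2. Olfml3 stood at 41.6 CPM in metastasis 1 (12 UMIs), 568.6 in naive 1, 1048 in metastasis 2, 616.8 in naive 2, 631.0 in Cx3cr1-null and 352.9 in Cx3cr1-heterozygous. Naive 1, naive 2 and Cx3cr1-null could not be told apart by their counting intervals for Olfml3. The order of libraries for Sparc was thus that for Cst3, while Olfml3 had another one, with metastasis 2 highest.

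Cst3 outnumbered Sparc by 9.24 UMIs to 1 in the microglia-like cells of metastasis 1, 15.4 in naive 1, 15.4 in metastasis 2, 11.6 in naive 2, 13.8 in Cx3cr1-null and 12.1 in Cx3cr1-heterozygous. Cst3 UMIs per Olfml3 UMI ran from 48.7 in metastasis 2 and 50.04 in naive 2, through 66.6 in Cx3cr1-null, 93.5 in Cx3cr1-heterozygous and 107 in naive 1, to 255 in metastasis 1. Cst3 and Sparc thus kept a closer ratio across libraries than Cst3 and Olfml3.

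Every microglia-like cell held a Cst3 UMI, and the levels of single cells spread widely. The median cell devoted 0.918% of its UMIs to Cst3 in metastasis 1, 6.15% in naive 1, 5.99% in metastasis 2, 2.95% in naive 2, 3.74% in Cx3cr1-null and 3.16% in Cx3cr1-heterozygous. The highest cell of naive 1 reached 15.7%, and the highest of metastasis 1 reached 3.24%, below the naive 1 lower quartile of 4.66%. Cells within a library are not replicates of its group, and no test was made over them.

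Part of this spread ran with depth. In metastasis 2 the shallower cells held 76101 CPM of Cst3 and the deeper cells 45726 CPM, when the cells were split at their median UMI count. In naive 1 these levels were 71444 CPM in the shallower and 57969 CPM in the deeper cells, and in the other 4 libraries they lay closer together, for instance 40634 CPM in the shallower and 42543 CPM in the deeper cells of Cx3cr1-null. Metastasis 2 and naive 1 shared a cluster of shallow microglia-like cells, led by Cx3cr1, with a median of 788 UMIs in metastasis 2 and 860 in naive 1. Its Cst3 level was 80016 CPM in metastasis 2 and 78340 CPM in naive 1. In naive 1 that cluster also held 1949 CPM of casein and other mammary transcripts, foreign to microglia, against 122 CPM in metastasis 2. Whether depth or RNA from outside the cell had a part in these Cst3 levels was not tested. Over all barcodes the mammary transcripts, chosen after their values were seen, summed to 30.7 CPM in metastasis 1 and 1444 in naive 1. They summed to 179 CPM in metastasis 2 and 4.93 in naive 2. Their source, and any bearing on the sample labels, was not tested.

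**Figure D2:**
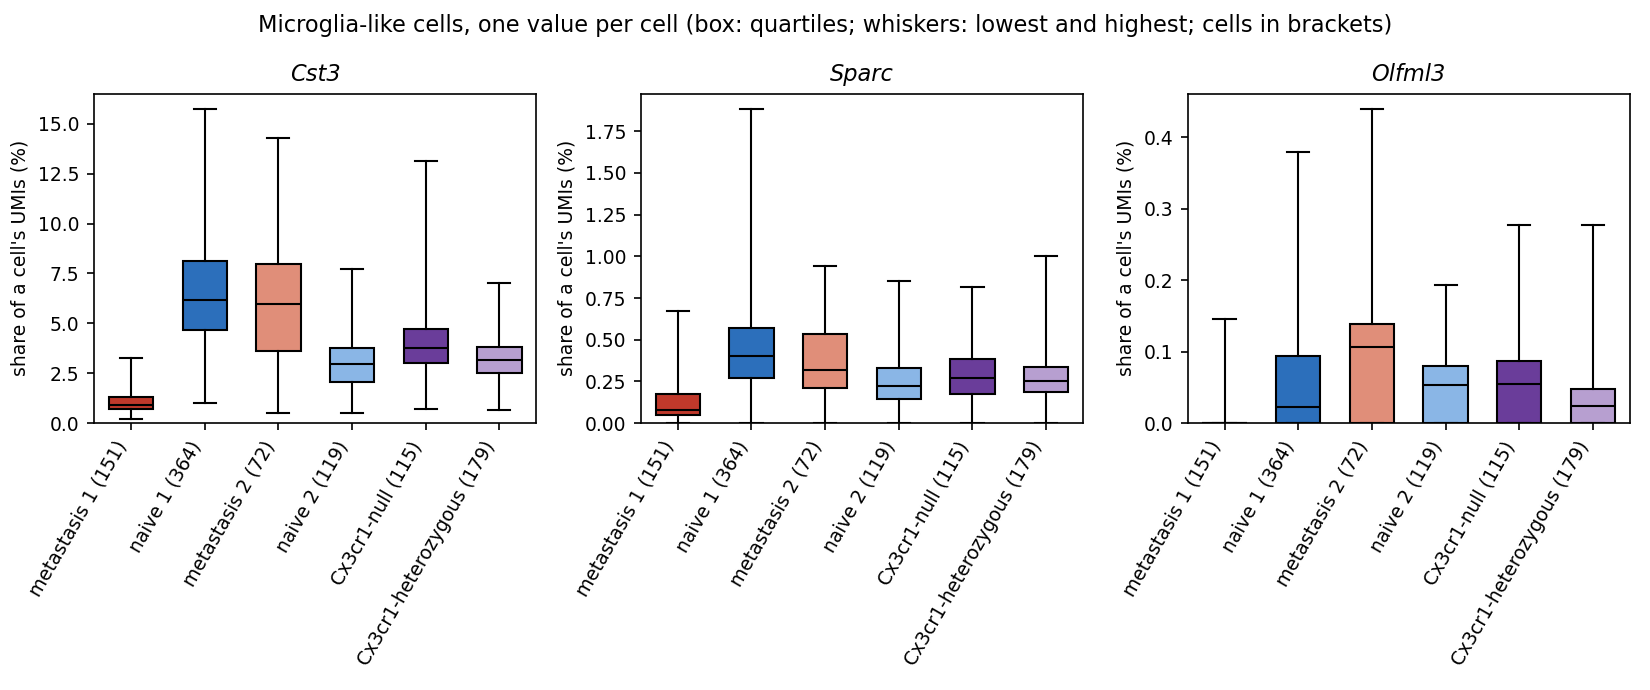
Share of each microglia-like cell's UMIs (%, linear axis) taken by the 3 transcripts, by library. The line is the median, the box the quartiles and the whiskers the lowest and highest cell, and metastasis 1 has the lowest medians, 0.918% for Cst3, 0.0810% for Sparc and 0 for Olfml3.

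Sparc was detected in nearly all microglia-like cells outside metastasis 1, where 33 of 151 cells lacked it. The median cell gave it 0.0810% of UMIs in metastasis 1, 0.402% in naive 1, 0.319% in metastasis 2, 0.225% in naive 2, 0.271% in Cx3cr1-null and 0.252% in Cx3cr1-heterozygous. Olfml3 was missed far more often, in 140 of 151 cells of metastasis 1, 180 of 364 of naive 1, 20 of 72 of metastasis 2, 37 of 119 of naive 2, 32 of 115 of Cx3cr1-null and 76 of 179 of Cx3cr1-heterozygous.

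These shares depend on depth, so each cell was thinned to 800 UMIs in 1 random draw, and shallower cells were left out. That kept 151 of 151 microglia-like cells in metastasis 1, 286 of 364 in naive 1, 48 of 72 in metastasis 2, 111 of 119 in naive 2, 109 of 115 in Cx3cr1-null and 171 of 179 in Cx3cr1-heterozygous. An Olfml3 UMI was then found in 1.32% of the cells left in metastasis 1, 35.0% in naive 1, 54.2% in metastasis 2, 36.0% in naive 2, 38.5% in Cx3cr1-null and 22.2% in Cx3cr1-heterozygous. The thinned share was 0 of 62 in the carcinoma-like cells of metastasis 1, whose median depth was 8703 UMIs against 1714 UMIs in the microglia-like cells. That share of 0 has an exact upper limit of 5.78%, so by thinned shares the 1.32% of metastasis 1 cannot be set apart from carcinoma-like cells. With all UMIs, Olfml3 stood at 41.6 CPM (21.5 to 72.7) in these microglia-like cells and 9.93 CPM (3.99 to 20.5) in carcinoma-like cells. Those counting intervals did not meet. The intervals of other classes there, such as macrophage-like cells at 18.2 CPM (9.97 to 30.6), overlapped the microglia-like one. The exact binomial intervals of the thinned share were 29.4% to 48.3% in Cx3cr1-null and 16.2% to 29.2% in Cx3cr1-heterozygous, which just miss each other. Thinned to 500 UMIs, which keeps every microglia-like cell, the shares were 26.1% (18.3% to 35.1%) in Cx3cr1-null and 16.2% (11.1% to 22.4%) in Cx3cr1-heterozygous, and the intervals overlapped.

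Metastasis was compared with naive by summing microglia-like counts per library, and none of the 3 transcripts passed the test. With the groups as labelled, they overlapped for all 3, while 30.8% of the 5473 genes tested had groups that did not overlap. The log2 change from metastasis over naive was -0.67 for Cst3 (SE 0.91, edgeR quasi-likelihood test, adjusted p = 0.991). It was -0.66 for Sparc (SE 0.67, edgeR adjusted p = 0.991) and -0.20 for Olfml3 (SE 1.06, edgeR adjusted p = 0.996). The share of genes called by edgeR was 0.0%, or 0 of 5473, and 185 genes had an unadjusted p under 0.05. By DESeq2, 1 gene was called, the choroid plexus transcript Ttr, chosen for naming after its value was seen.

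Beside these large standard errors, the 2 pairs of libraries lay on opposite sides of 0. In replicate 1, the log2 ratio of metastasis 1 over naive 1 was -2.53 for Cst3 (95% counting interval -2.58 to -2.47), -1.79 for Sparc (-1.96 to -1.62) and -3.77 for Olfml3 (-4.74 to -2.95). All 3 were lower in metastasis 1, as were 39.3% of the 3331 genes with 50 UMIs or more in the pair, whose median log2 ratio was 0.24. Cst3 lay at percentile 0.931 of those genes, Sparc at 3.30 and Olfml3 at 0.240.

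In replicate 2, the log2 ratio of metastasis 2 over naive 2 was 0.73 for Cst3 (0.68 to 0.77), 0.32 for Sparc (0.17 to 0.48) and 0.76 for Olfml3 (0.47 to 1.06). All 3 were higher in metastasis 2, as were 51.6% of the 2019 genes measured, whose median log2 ratio was 0.02. Cst3 stood at percentile 87.1, Sparc at 69.5 and Olfml3 at 88.3. By the labels, the direction in replicate 2 was thus opposite to that in replicate 1 for every one of the 3 transcripts, and each pair is also a comparison within 1 sequencer. This rests on the labels of replicate 2, which Rhox5 goes against. If they were exchanged, all 3 would be lower with metastasis in both pairs, the groups would no longer overlap for Cst3 and Sparc, and the percentiles and the share of genes would count from the other end.

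Libraries of the same group differed on a like scale. Naive 2 over naive 1 gave a log2 ratio of -0.98 for Cst3, -0.58 for Sparc and 0.12 for Olfml3, the last with an interval of -0.12 to 0.36. Metastasis 2 over metastasis 1 gave 2.27 for Cst3, 1.53 for Sparc and 4.65 for Olfml3. On the log2 scale, metastasis 1 lay furthest from the other libraries for all 3.

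With the replicate number as a block, the log2 change was -0.99 for Cst3, -0.83 for Sparc and -1.42 for Olfml3, each with an edgeR adjusted p of 0.998. Without metastasis 2, which leaves metastasis 1 alone in its group and assumed to vary like the naive libraries, Olfml3 changed by -4.02 with an edgeR adjusted p of 0.000822, and edgeR called 246 genes. In that fit Cst3 changed by -2.36 and Sparc by -1.75, without passing (edgeR adjusted p = 0.179 and 0.142). Without metastasis 1 the Olfml3 change was 0.77, that of Cst3 was 0.064 and that of Sparc -0.070, with 6 genes called. Without naive 1 the Cst3 change was 0.015, so the direction of Cst3 and Olfml3 turned when a single library was left out.

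Markers of other cell types in microglia-like cells differed between the libraries, in both directions. The 10 monocyte and macrophage markers summed to 690 CPM in metastasis 1, 54.9 in naive 1, 25.4 in metastasis 2 and 171 in naive 2, with 2, 4, 7 and 3 of them at 0. Chil3 on this list appears in these data under its older symbol, Chi3l3. Its UMIs may therefore be missing from the sums, and it may be counted among the markers at 0. The 7 carcinoma markers summed to 440.5 CPM in metastasis 1, 50.5 in naive 1, 0 in metastasis 2 and 18.4 in naive 2. Metastasis 1 was the highest of the 6 libraries for both lists. The 7 ependymal and choroid plexus markers stood at 201 CPM in metastasis 1, 1326 in naive 1, 292 in metastasis 2 and 2415 in naive 2. The border-associated macrophage markers summed to 246 CPM in metastasis 1 and 400.2 to 505 CPM in the other 5 libraries, and dendritic cell and B cell markers were also lowest in metastasis 1. The part of any of these in the ratios of Cst3, Sparc and Olfml3 was not tested.

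**Figure D3:**
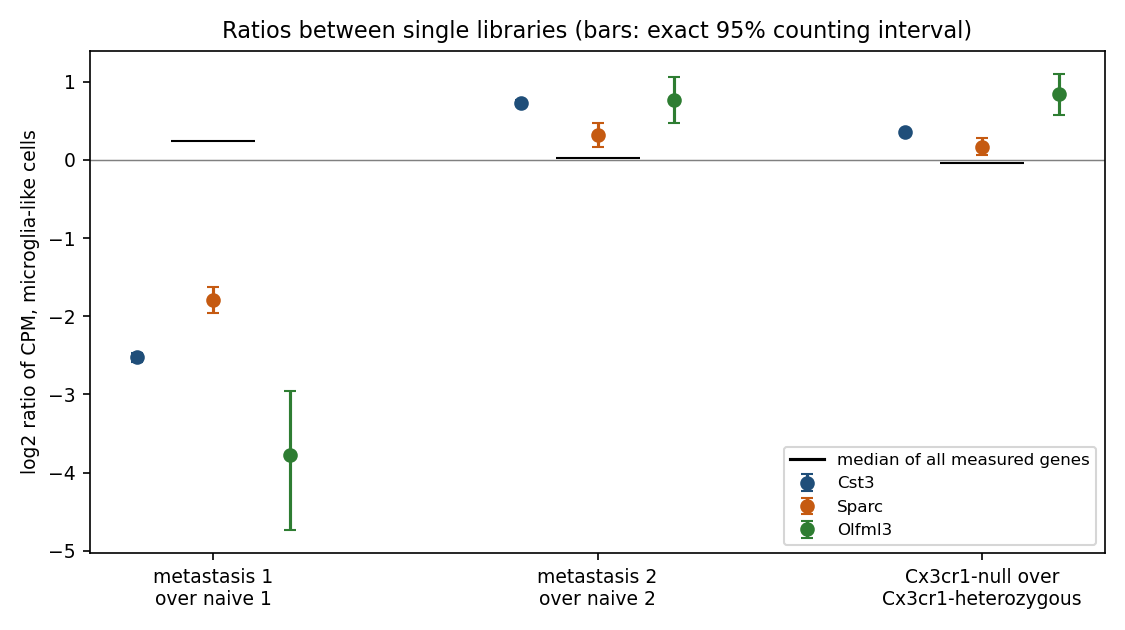
Log2 ratios of CPM in microglia-like cells for the 3 single-library comparisons, with exact 95% counting intervals and, as a black bar, the median of all genes measured. The 3 transcripts lie below the median in metastasis 1 over naive 1 and above it in metastasis 2 over naive 2 and in Cx3cr1-null over Cx3cr1-heterozygous.

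Over all kept cells, with no naming of cell types, the outcome was alike. The log2 change was -0.64 for Cst3 (SE 1.38), -0.78 for Sparc (SE 0.90) and 0.03 for Olfml3 (SE 1.45), each with an edgeR adjusted p of 0.999. Here 0 of 8096 genes were called (0.0%), 146 had an unadjusted p under 0.05, and DESeq2 called 0. Without naive 1 edgeR called 39 genes, and without naive 2 it called 20, none of them Cst3, Sparc or Olfml3. With the replicate block the Olfml3 change turned to -1.77, and those of Cst3 and Sparc were -1.27 and -1.12, with no call.

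The deleted receptor checked the 2 genotype labels first. Cx3cr1, the fractalkine receptor of microglia, had 20 UMIs (57.6 CPM) in the microglia-like cells of the Cx3cr1-null library and 972 UMIs (1314 CPM) in those of the Cx3cr1-heterozygous library. The 4 unmodified libraries held 978 CPM in metastasis 1, 4443 in naive 1, 4466 in metastasis 2 and 2239 in naive 2. Which part of the gene was replaced is not given in the sources used here, so the 3′ count gives the direction only.

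Olfml3 was the transcript that differed most between the genotypes, and it was higher in the null library. Its level was 631.0 CPM in Cx3cr1-null and 352.9 CPM in Cx3cr1-heterozygous microglia-like cells, a ratio of 1.79, or 0.84 on the log2 scale (95% counting interval 0.57 to 1.10). Cst3 had a log2 ratio of 0.35 (0.32 to 0.38) and Sparc of 0.17 (0.06 to 0.28). All 3 were higher in Cx3cr1-null, as were 45.4% of the 4008 genes measured, whose median log2 ratio was -0.05, and Olfml3 stood at percentile 98.2 of them. There is 1 library per genotype and so no replicate check. The log2 distance between the 2 naive libraries was larger for Cst3 and Sparc and smaller for Olfml3, and that between the 2 metastasis libraries was larger for all 3.

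Most Olfml3 UMIs of microglia-like cells lay in the cluster led by C1qa, 195 of 219 in Cx3cr1-null and 250 of 261 in Cx3cr1-heterozygous. So did most of their UMIs of any gene, 291930 of 347074 in Cx3cr1-null and 701112 of 739680 in Cx3cr1-heterozygous. That cluster had 81 cells in Cx3cr1-null and 153 in Cx3cr1-heterozygous. The Olfml3 level there was 668 CPM in Cx3cr1-null and 357 CPM in Cx3cr1-heterozygous, a log2 ratio of 0.91 (95% counting interval 0.63 to 1.18). The cluster led by P2ry12 had 25 cells in Cx3cr1-null and 19 in Cx3cr1-heterozygous. There Olfml3 rested on 18 UMIs in Cx3cr1-null and 9 in Cx3cr1-heterozygous. The interval of its log2 ratio, -0.78 to 1.79, took in 0 and also 0.91, so the clusters could not be told apart. Its log2 ratio was 0.91 over all kept cells and 0.84 over all barcodes, and it was 0.87 without the 3 cells of each library that held the most Olfml3. For Cst3, by contrast, the log2 ratio was 0.16 over all kept cells and 0.052 over all barcodes, so its size depends on which barcodes are counted. For Sparc it was 0.14 over all kept cells and 0.16 over all barcodes.

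Barcodes of other classes also held these transcripts, and were set beside 7 microglia markers that they should lack, Tmem119, P2ry12, Siglech, Gpr34, Fcrls and Sall1 among them. Each value below is a percentage of the level in microglia-like cells of the same library. Where a transcript stands at the same percentage as the 7 markers, its UMIs and theirs are in the same ratio in that class as in microglia-like cells. Clusters were made from these cells, so the values are descriptions with no test.

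Macrophage-like barcodes held Cst3 at 0.73 to 1.47 times the percentage of the 7 markers. This class joined a cluster led by Il1b and Wfdc17 and another led by Cd74 and the MHC class II gene H2-Aa. Both were named by the markers of monocytes or monocyte-derived macrophages. In metastasis 1 (253 cells) Cst3 stood at 55.7% and the 7 markers at 38.0%, and in naive 2 (35 cells) Cst3 stood at 40.6% and the markers at 39.97%. In Cx3cr1-null (28 cells) Cst3 stood at 34.5% and the markers at 47.0%, and in Cx3cr1-heterozygous (41 cells) at 51.8% and 45.7%. Single markers ran from 28.3% to 56.2% in these 4 groups, so the Cst3 values lay within the range of markers, with metastasis 1 the exception, where the highest marker stood at 50.8%. With finer clusters (resolution 2) the macrophage-like Cst3 level was 6895 CPM in naive 2, where it had been 12529, and 8624 CPM in Cx3cr1-heterozygous, where it had been 17068. A cluster of 203 cells led by Il1b and Wfdc17 then had no name. That left 45 macrophage-like cells in metastasis 1, with Cst3 at 5481 CPM, where it had been 5905.

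Sparc in macrophage-like barcodes stood at 44.7% in metastasis 1, 42.2% in naive 2, 52.0% in Cx3cr1-null and 49.0% in Cx3cr1-heterozygous, all within the range of single markers of the same library. With finer clusters its level was 840.5 CPM in Cx3cr1-null, where it had been 1588, and 475 CPM in Cx3cr1-heterozygous, where it had been 1331. Olfml3 stood at 43.8% in metastasis 1 (14 UMIs), 37.2% in naive 2, 75.5% in Cx3cr1-null and 58.2% in Cx3cr1-heterozygous. The Cx3cr1-null value, 476 CPM from 105 UMIs, lay above the highest single marker at 56.2%. The Cx3cr1-heterozygous value also lay above its highest marker at 54.6%, with a counting interval of 45.5% to 73.2%. With finer clusters the Olfml3 level was 107.5 CPM in Cx3cr1-null and 96.6 CPM in Cx3cr1-heterozygous, where it had been 205, so these levels rest on which barcodes are called macrophage-like.

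In metastasis 1, dendritic cell-like barcodes held more Cst3 than microglia-like cells did. The 11 cells had 17509 CPM of Cst3, 165% of the microglia-like level (149% to 182%), while the 7 markers stood at 28.3%. With finer clusters (resolution 2) the Cst3 level was 11797 CPM in 26 dendritic cell-like cells, beside 10396 CPM in microglia-like cells, so the size of this excess rests on the clustering. Sparc stood at 56.2% in the 11 cells from 15 UMIs. Cst3 is known to be expressed by dendritic cells. The 0 Olfml3 UMIs of these cells, and of the 23 NK cell-like cells, have upper limits above the microglia-like level, so no difference was detectable at this depth. NK cell-like cells held Cst3 at 32.2% and Sparc at 21.1%, with the markers at 32.02%.

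Carcinoma-like cells of metastasis 1 (62 cells) were the class with the least Cst3 of that library and yet held much Sparc. Cst3 stood at 991 CPM, 9.34% of the microglia-like level, and the 7 markers at 5.09%, with single markers from 1.80% to 8.33%. Sparc stood at 675 CPM, 58.8% of the microglia-like level, far above every marker. Sparc therefore did not keep its microglial ratio to the markers in these cells. Olfml3 had 7 UMIs in these cells, or 23.9% with a counting interval of 9.59% to 49.1%.

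Endothelial-like cells of naive 2 (12 cells) showed the same contrast more widely. Sparc stood at 6866 CPM, 258% of its microglia-like level, while Cst3 stood at 7.07%, Olfml3 at 1.54% from 1 UMI and the 7 markers at 3.80%. Most of this came from 2 deep barcodes of nearly the same letters, which read as a single bead and held 660 of the 724 Sparc UMIs. Without them Sparc stood at 2023 CPM (76.1%), with Cst3 at 11.2% and the markers at 8.28%. Endothelial-like cells of Cx3cr1-heterozygous (12 cells) held Sparc at 71.8%, against 27.9% for Cst3, 27.9% for Olfml3 and 25.4% for the markers. In both libraries Sparc thus stood above all 7 markers, whose highest values were 4.41% in naive 2 and 31.96% in Cx3cr1-heterozygous.

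Border-associated macrophage-like cells of naive 1 (27 cells) held Cst3 at 52.3%, Sparc at 38.3% and Olfml3 at 52.0%, with the 7 markers at 56.4%. The unnamed cluster of metastasis 1 led by S100a6 and mt-Rnr1 (434 cells) held Cst3 at 35.8%, Sparc at 72.5% and Olfml3 at 57.2% (16 UMIs), with the markers at 32.5%. Its leading genes also included Rhox5, and Sparc was above every single marker there (highest 46.9%).

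**Figure D4:**
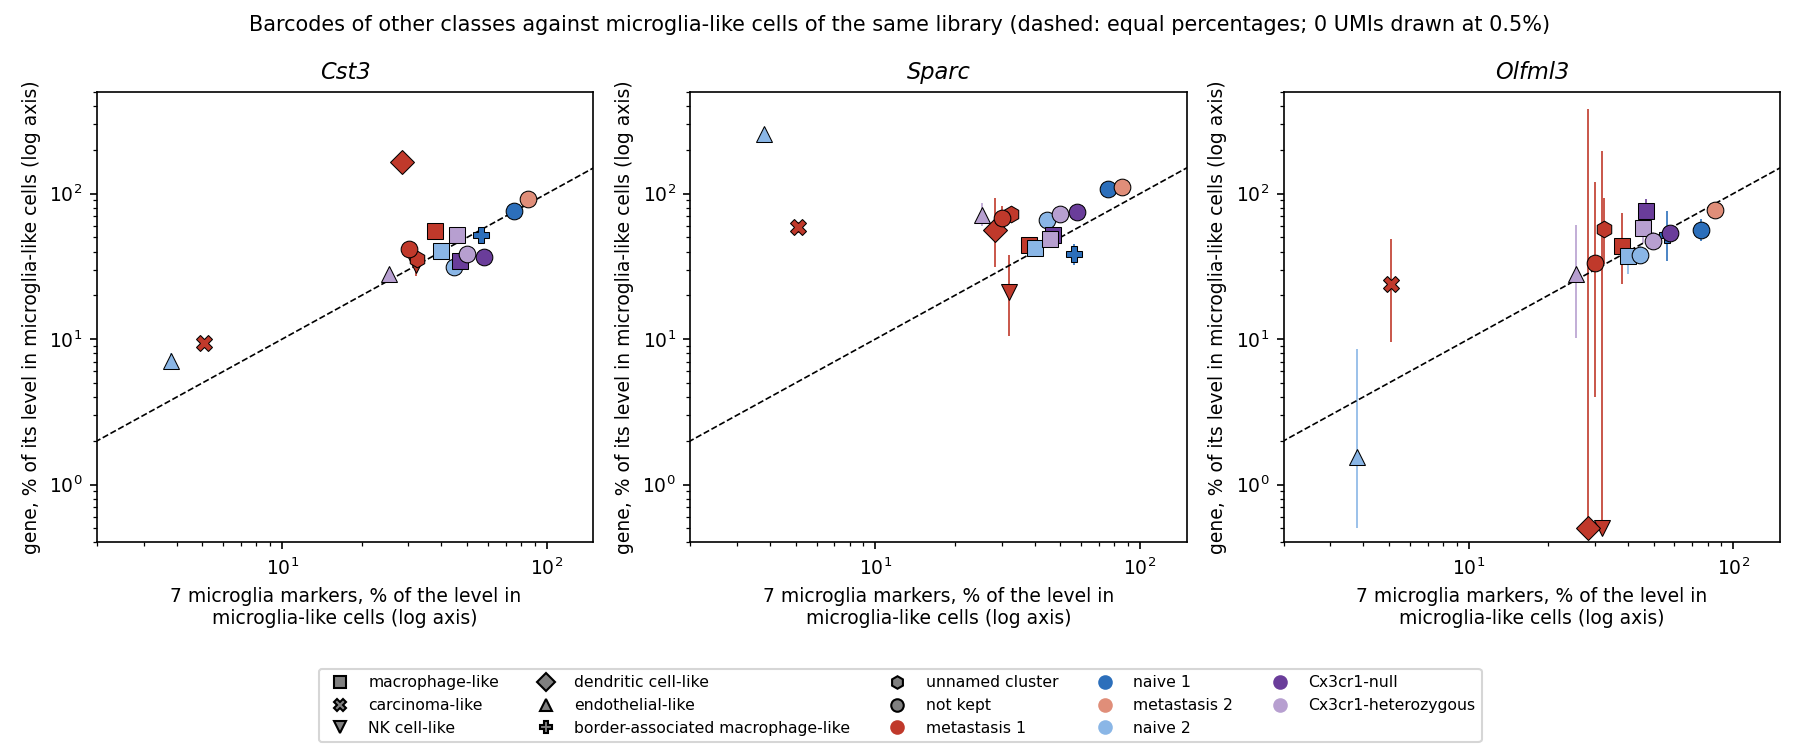
Level of each transcript in barcodes of other classes (vertical, log axis) against the level of 7 microglia markers in the same barcodes (horizontal, log axis), both as a percentage of the level in microglia-like cells of the same library. Bars are 95% counting intervals of the class alone. Cst3 lies furthest above the dashed line of equal percentages in dendritic cell-like cells (165%), and less far above it in carcinoma-like cells (9.34%) and endothelial-like cells of naive 2 (7.07%). Sparc lies well above it in carcinoma-like (58.8%) and endothelial-like (258% and 71.8%) cells.

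Barcodes that failed the filters held a part of the 3 transcripts, as they did of all UMIs. They held 145059 of the 2667099 UMIs of metastasis 1, 433393 of 1222347 in naive 1 and 323005 of 491621 in metastasis 2. In naive 2 they held 865587 of 1622472, in Cx3cr1-null 1160139 of 1764092 and in Cx3cr1-heterozygous 1193569 of 2376501. Of all Cst3 UMIs, 5.24% lay in such barcodes in metastasis 1, 31.0% in naive 1 and 64.8% in metastasis 2. The Cst3 share was 34.7% in naive 2, 49.8% in Cx3cr1-null and 32.3% in Cx3cr1-heterozygous. In each library it was below the share of all UMIs in these barcodes. Their Sparc level was 68.5% of the microglia-like level in metastasis 1, 108% in naive 1, 112% in metastasis 2, 65.9% in naive 2, 74.9% in Cx3cr1-null and 72.2% in Cx3cr1-heterozygous. Sparc stood above the highest of the 7 markers in 5 of 6 libraries, Cx3cr1-null being the exception.

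Cst3 and Olfml3 behaved otherwise in these barcodes. Cst3 stood at 41.5% in metastasis 1, 75.9% in naive 1, 91.6% in metastasis 2 and 31.4% in naive 2, within the range of single markers of the same library. It stood at 36.8% in Cx3cr1-null and 38.4% in Cx3cr1-heterozygous, below each of the 7 markers, of which the lowest was at 49.5% in Cx3cr1-null and 44.1% in Cx3cr1-heterozygous. Olfml3 stood at 33.1% in metastasis 1, 56.4% in naive 1, 77.4% in metastasis 2, 38.0% in naive 2, 53.7% in Cx3cr1-null and 47.3% in Cx3cr1-heterozygous. The 8 endothelial markers in these barcodes reached 131 CPM in metastasis 1, 36.9 in naive 1, 83.6 in metastasis 2, 864 in naive 2, 322 in Cx3cr1-null and 674 in Cx3cr1-heterozygous. In microglia-like cells they stood at 31.2 CPM in metastasis 1, 22.3 in naive 1, 82.6 in metastasis 2, 178 in naive 2, 127 in Cx3cr1-null and 138 in Cx3cr1-heterozygous. Their part in the Sparc level was not tested.

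The genes around the 3 transcripts were described in microglia-like cells by 7 lists, and edgeR called none of their tested genes between metastasis and naive. Of the 9 other cystatins, 3 were in the tables and 2 were tested. Cstb, an intracellular cystatin, stood at 770 CPM in metastasis 1 and 168 CPM in naive 1, and at 305 CPM in metastasis 2 and 168 CPM in naive 2. It was higher with metastasis in both pairs, unlike Cst3, but did not pass (log2 change 1.57, SE 0.54, edgeR adjusted p = 0.991). Cst7, the other cystatin tested, went opposite ways in the 2 pairs, at 1.83 for replicate 1 and -3.02 for replicate 2 on the log2 scale, and did not pass (log2 change -0.52, SE 0.94, edgeR adjusted p = 0.991).

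Among the cysteine proteases that cystatins inhibit, the 3 most abundant were Ctss, Lgmn and Ctsb. Ctss, a lysosomal cathepsin secreted by microglia, stood at 5952 CPM in metastasis 1, 6619 in naive 1, 7622 in metastasis 2, 6753 in naive 2, 8067 in Cx3cr1-null and 7319 in Cx3cr1-heterozygous. Lgmn (legumain) ran from 2078 to 3603 CPM and Ctsb from 2096 to 2596 CPM over the 6 libraries. Of the 9 measured, 3 were higher and 6 lower in metastasis 1 than in naive 1. In replicate 2, 3 of 8 were higher in metastasis 2, and 5 of 9 were higher in Cx3cr1-null. Of all genes measured, 39.3% were lower in metastasis 1, 51.6% higher in metastasis 2 and 45.4% higher in Cx3cr1-null.

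Other secreted microglial transcripts, 23 tested, had a median log2 change of -0.19 beside 0.01 over all 5473 genes. In replicate 1, 15 of 23 were lower in metastasis 1, with a median log2 ratio of -0.46, beside 39.3% of all genes measured. The complement subunit C1qb stood at 2442 CPM in metastasis 1 and 6357 CPM in naive 1. In replicate 2, 13 of 21 were lower in metastasis 2, with a median of -0.09. In the genotypes 12 of 22 were lower in Cx3cr1-null, with a median of -0.04. Of all genes measured, 51.6% were higher in metastasis 2 and 45.4% were higher in Cx3cr1-null.

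Among BMP and TGF-beta genes, 5 of 12 were tested and had a median log2 change of -0.44. Tgfbr1, a receptor for TGF-beta, a signal that maintains microglia, stood at 458 CPM in metastasis 1, 796 in naive 1, 985 in metastasis 2 and 1058 in naive 2. Of the SPARC family only Sparcl1 was tested (log2 change 1.28, SE 0.64, edgeR adjusted p = 0.991), a transcript of endothelial cells and astrocytes. Of 12 SPARC ligands and matrix genes 3 were tested, with a median log2 change of 0.00, and Stab1, a scavenger receptor that takes up SPARC, stood at 83.2 CPM in metastasis 1, 267 in naive 1, 254 in metastasis 2 and 441 in naive 2. No other olfactomedin-like gene passed the filter on low counts, so Olfml3 was the only member of its family to be tested.

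Genes with a like pattern were sought among the 3649 genes of at least 50 mean CPM in microglia-like cells, by the root mean square difference of centred log2 CPM over the 6 libraries. Nearest to Cst3 were Naip5 (0.12), Grap (0.14) and P2ry12 (0.17), which encode an inflammasome sensor, a signalling adaptor and a purinergic receptor. Naip5 has close paralogs, so its count is uncertain. P2ry12 stood at 482 CPM in metastasis 1, 2420 in naive 1, 2636 in metastasis 2, 1528 in naive 2, 2319 in Cx3cr1-null and 1836 in Cx3cr1-heterozygous.

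Nearest to Sparc were Sox4 (0.07), a transcription factor, Adamts1 (0.09), a secreted metalloprotease, and Rgs10 (0.11), a regulator of G protein signalling. Nearest to Olfml3 were Lyl1 (0.47), a transcription factor, the predicted gene Gm10288 (0.47) and Adam15 (0.48), a membrane metalloprotease, so no gene followed Olfml3 as closely as others followed Cst3 and Sparc. In metastasis 1 the Olfml3 level rested on 12 UMIs, and Lyl1, Gm10288 and Adam15 stood at 17.3, 6.94 and 20.8 CPM. Naip5, nearest to Cst3, also stood at 17.3 CPM there. The part of counting error in these distances was not tested. Sparc was 14th nearest to Cst3, and Olfml3 was 1141st. These likenesses are descriptions over 6 libraries, and metastasis 1 lies lowest in all 3 patterns.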

How the data were processed

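The authors deposited raw UMI counts, 1 table of genes by 1000 barcodes for each of 6 libraries. Per the labels' protocols, brains were digested with papain and libraries were made with Nextera XT. Per the submitters' processing notes, STAR, Seurat and the build mm10 were used, in versions and settings not given here. Groups follow the sample labels. No pair of libraries had more than 1 barcode in common.

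Filtering required 400 genes and under 10% mitochondrial UMIs per barcode, and dropped the top 5% of Scrublet scores (scanpy 1.11.5). Leiden clusters (igraph 0.11.9, resolution 1) used 2000 variable genes without the 3 described, 30 components and 15 neighbours, with no batch correction. A "-like" name, from 16 marker lists, needed 3 markers at 50 CPM in 5% of cells, a mean marker level of 0.5 of the highest cluster and 1 marker among 50 leading genes. If 1 library gave 90% of a cluster, the other cells of the same library could serve instead, with a median marker log2 fold of at least 1. These limits were set after the clusters had been seen.

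UMI counts summed per library were compared by the edgeR 4.0.16 quasi-likelihood test (R 4.3.3, TMM, filterByExpr, Benjamini-Hochberg adjusted p under 0.05), which was tested on simulated data, with DESeq2 1.42.0 as an alternative. The labels do not say how far the brains were handled apart, so its p-values may reflect technical spread only. Replicate number marks the sequencer, per the labels, and so pairs the libraries. The deviations of same-numbered libraries from their group means correlated at -0.12 in microglia-like cells and, with all kept cells summed, at -0.41. Exact 95% intervals (Poisson or Clopper-Pearson) cover counting error alone, and a floor of 3 counts stands for a count of 0. Classes needed 10 cells. The 3 genes and all lists were chosen with earlier results of these data known. Named genes are the 3 most abundant of a list or the 3 nearest in pattern, apart from cell markers and the exception marked. A gene that this rule would name is not reported here.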

Additional observations from a re-analysis of the deposited data

How the results depend on the processing

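Leaving out each library in turn moved the log2 change of metastasis over naive in microglia-like cells between -2.36 and 0.064 for Cst3, -1.75 and -0.070 for Sparc, and -4.02 and 0.77 for Olfml3, and the number of genes called by edgeR between 0 and 246. Over all kept cells these ranges were -3.27 to 0.39 for Cst3, -2.27 to -0.060 for Sparc, -4.71 to 1.03 for Olfml3 and 0 to 39 genes. For the share of all UMIs, metastasis minus naive, they were -2.94 to 1.35 percentage points for Cst3, -0.229 to 0.0506 for Sparc and -0.0362 to 0.0490 for Olfml3. A mitochondrial limit of 25% turned Olfml3 to 0.16 in microglia-like cells, with 3 such cells left in metastasis 1. Over all kept cells Olfml3 turned to -0.055 with no filter on low counts and to -1.77 with the replicate block, which changed no call of the 3 genes. With no filter, edgeR called 57 genes in microglia-like cells and 100 in all kept cells, and DESeq2 called 1 in microglia-like cells. Pairing each library with the other number, an alternative chosen after seeing the data, gave 5 calls in microglia-like cells and 0 in all kept cells, with Olfml3 at -1.75 over all kept cells.

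The Cst3 log2 ratio of Cx3cr1-null over Cx3cr1-heterozygous was 0.16 over all kept cells, 0.052 over all barcodes and 0.19 with a marker gate. It was 0.16 with a mitochondrial limit of 25% and 0.17 with no doublet removal. Olfml3 lay between 0.80 and 0.93 under the same settings. That of Sparc was 0.058 (-0.041 to 0.156) with no doublet removal and 0.080 (-0.013 to 0.172) with a mitochondrial limit of 25%. These counting intervals of Sparc include no difference. The cause of these shifts was not tested. Of the levels by class, 11 of 48 moved by more than their counting interval at resolution 2, 6 of them by more than 1.5 times, all in macrophage-like cells, and 11 of 33 at a mitochondrial limit of 25%. A low count limits Olfml3 in metastasis 1, where its level rests on 12 of the 288323 UMIs of microglia-like cells. The endothelial-like values without the 2 deepest barcodes, and the ratios without the 3 cells highest in a gene, were also chosen after seeing the data.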
